A study of Mus musculus with 5 samples.

Results

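The contractile genes of vascular smooth muscle were followed in RNA of CD11b-positive brain cells: Myh11, Tagln, Acta2, Mylk, Tpm2, Pde3a, Aoc3, Cnn1, Des and Myl9. These 10 genes, of the 56748 in the deposited table, were picked by symbol because several of them had shown higher counts with the Cd5l transgene in these same libraries. Their levels in the 2 groups are therefore a description, given without a test. All 10 passed the filter on low counts.

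The study compared 5xFAD mice, a transgenic model that forms amyloid plaques, with 5xFAD mice that also carried 1 allele of a mouse Cd5l transgene (5xFAD/Cd5l tg/wt). Expression of that transgene is controlled by the human PDGF-B promoter, a promoter often used to drive genes in neurons. All the mice had the 5xFAD background and were 7 months old, and the cells came from brain without cerebellum. There were 2 libraries of 5xFAD mice (numbers 1 and 3) and 3 of Cd5l-transgenic mice (numbers 1, 2 and 3), each taken from its title as 1 mouse, and wild-type mice were not analysed here. Totals were between 30798377 and 34794617 counts per library. Cd5l itself stood at 1.52 and 0.254 CPM (counts scaled by library size and the TMM factors of edgeR) in 5xFAD mice 1 and 3, and at 234, 335 and 195 CPM in transgenic mice 1, 2 and 3. The titles name CD11b-positive cells and another label names brain tissue. The 6 microglial markers checked (Itgam, the CD11b gene itself, with Cx3cr1, P2ry12, Tmem119, Csf1r and Siglech) summed to between 12720 and 14550 CPM in every library. The 10 contractile genes together summed to between 136.5 and 362.9 CPM, so the transcripts described here are a minor part of the RNA and belong, by textbook, to cells that do not carry CD11b.

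Smooth muscle cells wrap arteries and arterioles, where they set vessel diameter and so the local blood flow of the brain. Their contraction begins when calcium and calmodulin switch on the myosin light chain kinase, which phosphorylates the regulatory light chain and lets smooth muscle myosin pull on actin filaments. The genes of this machinery are switched on largely by serum response factor, which binds a short sequence named the CArG box, with its partner myocardin. In bulk RNA, a different number of smooth muscle cells and a different amount of RNA per cell cannot be told apart.

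The stretch just before the start site was examined for that element, since many contractile genes are known targets of that factor. RefSeq windows (build GRCm38.p6) from 250 bases before to 50 bases after the start site were at hand for 6 of the 10 genes (Acta2, Myl9, Cnn1, Des, Mylk and Tpm2). All 300 bases were searched. Of 2 windows the 250 bases before the start site are shown, 5′ to 3′ on the strand of the gene, because they hold a CArG box or a near match, written in capitals. The stretch shown for Acta2 lies on the minus strand at chr19:34255374-34255623 and that for Myl9 on the plus strand at chr2:156775214-156775463.
Acta2: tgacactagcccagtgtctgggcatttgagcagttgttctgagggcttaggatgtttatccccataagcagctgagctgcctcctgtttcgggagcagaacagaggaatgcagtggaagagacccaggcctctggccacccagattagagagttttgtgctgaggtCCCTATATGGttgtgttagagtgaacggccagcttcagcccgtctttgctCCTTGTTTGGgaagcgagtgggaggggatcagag
Myl9: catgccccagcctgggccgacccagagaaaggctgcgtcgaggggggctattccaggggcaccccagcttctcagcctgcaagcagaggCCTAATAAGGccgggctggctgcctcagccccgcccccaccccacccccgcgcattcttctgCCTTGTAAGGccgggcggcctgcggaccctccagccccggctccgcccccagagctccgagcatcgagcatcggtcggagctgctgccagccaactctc
Myl9 holds 1 full CArG box, CCTAATAAGG, between positions -161 and -152, where -1 is the last base before the start site. It also holds 1 near match with a single mismatch, CCTTGTAAGG, between -99 and -90. Acta2 holds 2 near matches and no full box, CCCTATATGG between -84 and -75 and CCTTGTTTGG between -34 and -25. A full box was found in 1 of the 6 windows, against 1.63% of all 32851 windows in the table, and a box with at most 1 mismatch in 2 of 6, against 21.1%. The pattern reads the same on both strands. The MCAT motif CATTCC, which TEAD factors bind, was searched on both strands and found in Acta2 and Mylk (14.7% of all windows). The Notch effector motif TGGGAA was found in Acta2 (25.6% of all windows), where it overlaps the near match that ends at -25. CCAAT was found in Cnn1 and Mylk (37.4%) and TATAAA in none of the 6 (13.6%). A match describes letters in the window and no binding was measured.

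Levels can be compared between genes only per length, here as RPKM (CPM per kilobase of the gene length in the table). Acta2, the smooth muscle actin, and Myl9, the regulatory light chain, were the most abundant, with mean RPKM of 14.8 and 15.2 in 5xFAD and 29.6 and 25.3 in transgenic mice. Tagln followed at 7.44 and 14.8 RPKM, then Myh11 at 5.19 and 11.5, Tpm2 at 2.76 and 5.18, and Mylk at 1.82 and 3.51. Des, Aoc3 and Pde3a had between 0.476 and 0.805 RPKM in 5xFAD and between 0.991 and 1.97 in transgenic mice. Cnn1 was the lowest, at 0.14 and 0.371 RPKM. The order was the same in 4 of the 5 libraries. In 5xFAD mouse 1, Myl9 stood above Acta2 (14.19 and 12.97 RPKM) and Aoc3 just above Des (0.748 and 0.74 RPKM). The table does not say which transcripts a gene length covers, and Mylk also encodes shorter products, so its level per length is the least certain.

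**Figure D1:**
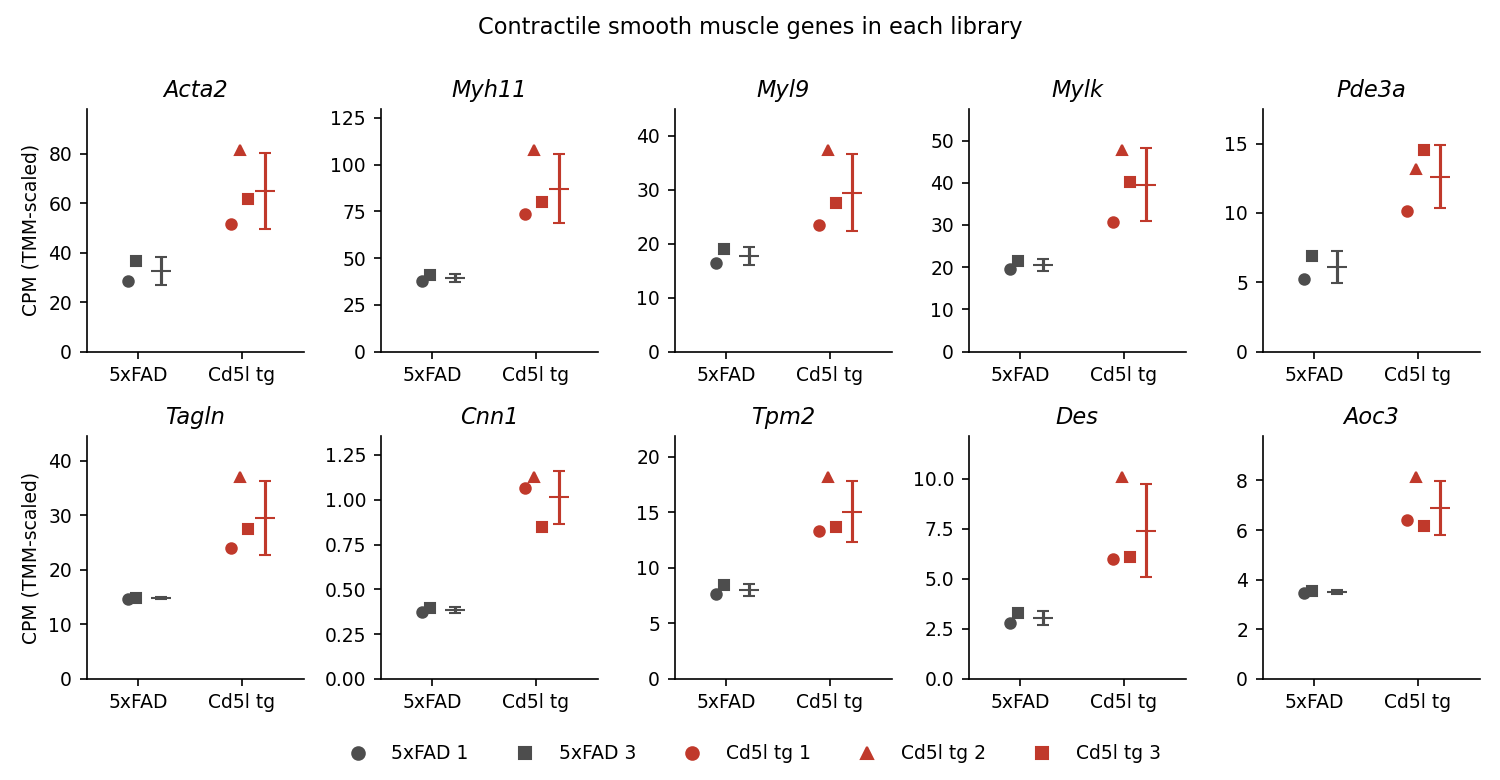
CPM of each of the 10 genes (vertical axes from 0, a scale for each gene) in 2 libraries of 5xFAD mice (grey) and 3 of Cd5l-transgenic mice (red). Symbols are single mice by number, and the dash with its bar is the mean ± SD. In each gene the 3 transgenic libraries lie above both 5xFAD libraries, and transgenic mouse 2 is the highest in 9 of the 10.

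In all 10 genes every transgenic library lay above both 5xFAD libraries. Over all 17724 tested genes that was so for 7.2%, a share given only as background, because the 10 genes were picked for this contrast. The ratio of the group means ran from 1.66 for Myl9 to 2.64 for Cnn1, and the median log2 fold change of the 10 genes was 1.00 (-0.03 over all tested genes). The plot of levels by library shows the single mice.

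Of the motor and its filament, Acta2 (ENSMUSG00000035783, chromosome 19, 34218490 to 34232990, GRCm39 as listed by the authors) stood at 28.5 and 36.7 CPM in 5xFAD mice 1 and 3 and at 51.5, 81.7 and 61.8 CPM in transgenic mice 1, 2 and 3. Group means were 32.6 ± 5.82 CPM for 5xFAD (SD, n = 2) and 65 ± 15.4 CPM for transgenic mice (SD, n = 3), with a log2 fold change of 0.99 (SE 0.23). Transgenic mouse 2 was the highest and 5xFAD mouse 1 the lowest, and the lowest transgenic value was 1.40 times the highest 5xFAD value. Myh11, the myosin heavy chain of smooth muscle (chromosome 16, 14012399 to 14109236), stood at 37.9 and 40.9 CPM in the 5xFAD pair, against 73.6, 108 and 80.0 CPM with the transgene. Here the 2 5xFAD mice were closer to each other, and the gap between the groups was wider, at 1.80 times. The means of Myh11 were 39.4 ± 2.13 CPM (SD, n = 2) and 87.2 ± 18.4 CPM (SD, n = 3). Myl9 (ENSMUSG00000067818, chromosome 2, 156617340 to 156623578), whose product the kinase phosphorylates, stood at 16.5 and 18.9 CPM in the 5xFAD pair, against 23.5, 37.4 and 27.5 CPM with the transgene, with a log2 fold change of 0.73 (SE 0.22). With means of 17.7 ± 1.71 CPM and 29.5 ± 7.19 CPM (SD, n = 2 and 3), it had the smallest difference of the 10 genes and the narrowest gap between the groups, at 1.24 times. Myl9 is also less restricted to smooth muscle than Myh11 or Acta2.

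Enzymes that start contraction or oppose relaxation lay the same way. Mylk, the myosin light chain kinase (chromosome 16, 34565580 to 34822790), stood at 19.5 and 21.4 CPM in the 5xFAD pair, against 30.78, 47.88 and 40.07 CPM with the transgene, and its means were 20.5 ± 1.38 and 39.6 ± 8.56 CPM. Transgenic mouse 1 was the nearest to the 5xFAD mice. Pde3a, a phosphodiesterase that breaks down cyclic AMP and so opposes relaxation (chromosome 6, 141194995 to 141453174), stood at 5.25 and 6.88 CPM in the 5xFAD pair, against 10.1, 13.1 and 14.6 CPM with the transgene. Its means were 6.06 ± 1.15 and 12.6 ± 2.26 CPM. It was the only 1 of the 10 genes whose highest value was in transgenic mouse 3, and it had the widest spread between the 5xFAD mice, at 1.31 times.

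Among the proteins that decorate the actin filament, Tagln (transgelin, chromosome 9, 45840917 to 45847356) stood at 14.7 and 14.9 CPM in the 5xFAD pair, against 24.0, 37.1 and 27.5 CPM with the transgene. The 5xFAD mice were almost level in Tagln, with means of 14.8 ± 0.176 and 29.5 ± 6.77 CPM. Tpm2, the beta tropomyosin (chromosome 4, 43514711 to 43523765), stood at 7.65 and 8.43 CPM in the 5xFAD pair, against 13.3, 18.2 and 13.7 CPM with the transgene, for means of 8.04 ± 0.548 and 15.1 ± 2.72 CPM. Transgenic mice 1 and 3 were close to each other and mouse 2 stood above them. Cnn1, calponin 1, a late marker of mature smooth muscle (ENSMUSG00000001349, chromosome 9, 22010512 to 22020926), rested on few reads: 11 and 14 counts in 5xFAD and 33, 36 and 28 counts in transgenic mice. That is 0.373 and 0.395 CPM against 1.07, 1.13 and 0.847 CPM, and the log2 fold change was 1.39 (SE 0.39). Cnn1 had the largest difference of the 10 genes together with the largest error. Unlike the other genes it was nearly level between transgenic mice 1 and 2.

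Des, which encodes the intermediate filament desmin (ENSMUSG00000026208, chromosome 1, 75336973 to 75345223), stood at 2.78 and 3.27 CPM in the 5xFAD pair, against 6.01, 10.1 and 6.11 CPM in transgenic mice (SE 0.32 around a log2 fold change of 1.28). The means were 3.02 ± 0.349 and 7.40 ± 2.33 CPM. Its spread among the transgenic mice was the widest of the 10 genes, 1.68 times from lowest to highest. Desmin is also made by pericytes and striated muscle. Of 10 sarcomeric genes of striated muscle, among them Acta1, Actc1, Myh6 and Ttn, 7 did not pass the filter on low counts. Actc1 had no count in any library, and the 3 that passed had a median log2 fold change of -0.16, which was 0.08 without 5xFAD mouse 3. Aoc3, vascular adhesion protein 1, an amine oxidase of the smooth muscle and endothelial surface (chromosome 11, 101221431 to 101232764), stood at 3.45 and 3.55 CPM in the 5xFAD pair, against 6.40, 8.15 and 6.17 CPM with the transgene. The means of Aoc3 were 3.50 ± 0.0692 and 6.90 ± 1.08 CPM. It had the narrowest spread among the transgenic mice, 1.32 times.

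The shares of Acta2 and Tagln in the summed RPKM of the 10 genes overlapped between the groups. Acta2 made up between 28.2% and 31.7% in every library and Tagln between 14.2% and 16.1%. The shares of Myl9 and Myh11 did not overlap. Myl9 made up 30.9% and 30.7% in 5xFAD and 26.3%, 27.1% and 26.6% in transgenic mice. Myh11 made up 10.9% and 10.2% in 5xFAD and 12.59%, 11.99% and 11.85% in transgenic mice. The ratio of Acta2 to Myh11 per length was 2.60 and 3.11 in 5xFAD and 2.42, 2.62 and 2.67 in transgenic mice, so the groups overlapped. The ratio of Myl9 to Acta2 was 1.09 and 0.974 in 5xFAD and 0.861, 0.865 and 0.841 in transgenic mice, without overlap. Cnn1 against Acta2 varied most, 1.93 times from the lowest to the highest library, in a gene with few counts. On a log2 scale centred over the 5 libraries, the mean of the 10 genes was -0.69 and -0.52 in 5xFAD mice 1 and 3 and 0.19, 0.70 and 0.33 in transgenic mice 1, 2 and 3. The SD over the 10 genes within a library was between 0.12 and 0.17. All 10 genes had their lowest value in 5xFAD mouse 1.

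With 1 library left out at a time, the median log2 fold change of the 10 genes ran from 0.83 without transgenic mouse 2 to 1.13 without transgenic mouse 1. Since the groups of each gene do not overlap, leaving out a library cannot turn the direction, and only the size is informative here.

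Other genes of the contractile apparatus were taken from a list of 24. This list and those below were chosen with earlier results of these data known. Shares of all tested genes beside them are therefore background and no independent support. Of the 24 genes, 23 were measured. Of these, 20 had a log2 fold change above 0 and 3 below (42.7% of all tested genes were above 0), with a median of 0.34. In the edgeR quasi-likelihood test adjusted over all genes 0 passed in either direction (adjusted p of at least 0.995 each), where edgeR called 0% of all tested genes. With the unadjusted p under 0.05, 7 were higher and 0 lower, against 1.14% and 1.5% of all tested genes. DESeq2 called 0 of the list, against 0.0677% higher and 0.0169% lower of all tested genes, and limma-voom called 0. In 9 genes the groups did not overlap, each with the transgenic libraries above (7.2% of all tested genes), and in 0 with them below (8.68%). Pln, phospholamban, the brake on the calcium pump of the sarcoplasmic reticulum, stood at 3.12 and 4.06 CPM in the 5xFAD pair, against 5.91, 9.18 and 8.92 CPM in transgenic mice (SE 0.27 around a log2 fold change of 1.15). Lmod1, leiomodin 1, which nucleates actin filaments in smooth muscle, stood at 2.44 and 3.07 CPM against 5.04, 6.58 and 4.17 CPM. Itga8, the integrin alpha 8 chain, stood at 1.83 and 1.35 CPM against 2.81, 2.76 and 3.36 CPM, and was highest in transgenic mouse 3. Ldb3, a Z-disc and dense-body adaptor, was low, with 0.711 and 0.761 CPM against 1.55, 2.66 and 1.42 CPM. The genes of the list with the highest levels are used by many cell types and had overlapping groups. Flna, filamin A, stood at 320 and 286 CPM in the 5xFAD pair, against 318, 325 and 350 CPM with the transgene. Myl6, the essential light chain, stood at 199 and 174 CPM against 183, 194 and 199 CPM, and its difference changed sign without 5xFAD mouse 3 (log2 fold change 0.04, and -0.05 without that mouse). The median of this list also moved with single libraries, to 0.15 without 5xFAD mouse 1 and 0.79 without 5xFAD mouse 3, and it was 0.21 without transgenic mouse 2.

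**Figure D2:**
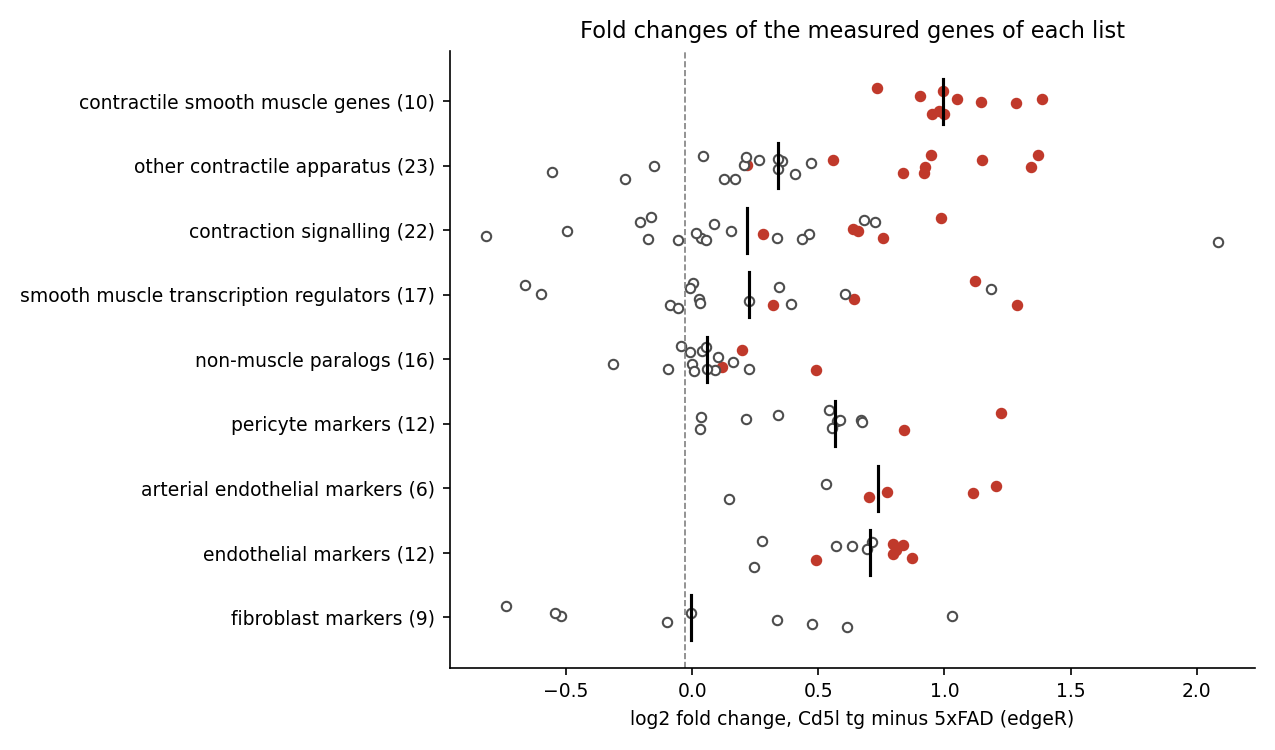
edgeR log2 fold changes (horizontal axis, Cd5l-transgenic minus 5xFAD) of the measured genes of each list, with the number measured in parentheses. Red points are genes whose 3 transgenic libraries all lie above both 5xFAD libraries, open points are genes with overlapping groups, black bars are list medians and the dashed line is the median of all tested genes. The medians are 1.00 for the 10 contractile genes, 0.34 for other genes of the apparatus and 0.06 for the non-muscle paralogs.

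Of 17 transcriptional regulators of smooth muscle, all measured, 12 lay above 0 and 5 below, with a median log2 fold change of 0.23 (42.7% of all tested genes lay above 0). The edgeR test called 0 and DESeq2 0, and 3 genes had an unadjusted p under 0.05, all higher (1.14% of all tested genes). In 4 of the 17 every transgenic library lay above both 5xFAD libraries (7.2% of all tested genes). Myocd, myocardin, the smooth muscle partner of serum response factor, stood at 0.508 and 0.536 CPM in the 5xFAD pair, against 1.45, 1.22 and 1.18 CPM in transgenic mice (SE 0.35 around a log2 fold change of 1.29; adjusted p = 0.995 in edgeR). It was higher in 3 of 3 transgenic libraries and was not highest in transgenic mouse 2. Myocd rested on few reads, 15 and 19 counts in 5xFAD and 45, 39 and 39 counts in transgenic mice. Srf, serum response factor itself, stood at 31.1 and 32.0 CPM against 28.0, 34.1 and 32.7 CPM, with overlap (log2 fold change 0.002). Notch3, the receptor that maintains arterial smooth muscle, stood at 23.8 and 27.7 CPM against 29.5, 51.1 and 39.8 CPM, and its target Heyl at 1.90 and 2.90 CPM against 3.55, 8.40 and 3.90 CPM. Heyl had a log2 fold change of 1.12, and of 0.63 without transgenic mouse 2. Mrtfb, a myocardin relative found in many tissues, stood at 29.0 and 29.9 CPM against 34.0, 41.55 and 34.99 CPM. Mef2c and Mef2d, the most abundant of the list, had overlapping groups. Which cells the counts of Srf, Mef2c and Mef2d came from was not measured. Among the 5 genes below 0 were Mrtfa (log2 fold change -0.09) and Tead1 (-0.60, highest in 5xFAD mouse 3), both with overlap. The median of this list was 0.01 without 5xFAD mouse 1, 0.48 without 5xFAD mouse 3, 0.37 without transgenic mouse 1 and 0.08 without transgenic mouse 2.

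Of 25 genes of contraction signalling 22 were measured, 16 above 0 and 6 below, with a median of 0.22. The edgeR test called 0 of them and DESeq2 0, and 3 had an unadjusted p under 0.05, all higher, beside 1.14% of all tested genes. The transgenic libraries all lay above in 5 of the 22, beside 7.2% of all tested genes. Both subunits of the nitric oxide receptor guanylyl cyclase, through which vessels relax, were among these 5. Gucy1a1 stood at 4.98 and 5.24 CPM in the 5xFAD pair, against 6.59, 10.5 and 6.83 CPM with the transgene, and Gucy1b1 at 3.25 and 5.92 CPM against 6.98, 11.1 and 9.50 CPM. Irag1, a target of the cyclic GMP kinase on calcium stores, stood at 6.03 and 6.79 CPM against 7.69, 12.4 and 10.3 CPM. That kinase itself, Prkg1, was among the 6 genes below 0 (log2 fold change -0.16). So were Npr1 (-0.21), Kcnmb1 (-0.50) and Itpr1 (-0.18), the last 2 highest in 5xFAD mouse 3. In all 4 the groups overlapped. Ppp1r12b, a targeting subunit of myosin phosphatase, stood at 32.7 and 33.7 CPM against 37.2, 44.2 and 39.9 CPM. Rhoa and Rock2, of the pathway that inhibits that phosphatase in most cells, were far more abundant, at 357 to 406 CPM and 168 to 203 CPM over the 5 libraries, and their groups overlapped. The list median was 0.14 without 5xFAD mouse 1 and 0.47 without 5xFAD mouse 3.

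The non-muscle relatives of the contractile genes serve the cytoskeleton of most cells. Their median log2 fold change lay near that of all tested genes (-0.03). Of 17 paralogs 16 were measured, 12 above 0 and 4 below (42.7% of all tested genes were above 0). Their median was 0.06, and it was below 0 under 3 alternatives: -0.03 with limma-voom, -0.00037 with the replicate number in the fit and -0.01 with 5xFAD mouse 3 and transgenic mouse 2 left out together. The edgeR test called 0 and DESeq2 0, with 1 gene at an unadjusted p under 0.05, higher (1.14% of all tested genes), and 3 of the 16 without overlap, all higher (7.2%). Actb, beta actin, stood at 2643 and 2424 CPM in the 5xFAD pair, against 2224, 2275 and 2878 CPM with the transgene. Myh9, the main non-muscle myosin, stood at 736 and 613 CPM against 745, 715 and 697 CPM, and its difference changed sign without 5xFAD mouse 3 (log2 fold change 0.09, and -0.04 without it). Cnn2, the calponin of leukocytes and other cells, was the gene with p under 0.05: it stood at 11.5 and 11.8 CPM against 15.3, 18.0 and 16.0 CPM (log2 fold change 0.49, SE 0.12; adjusted p = 0.995 in edgeR). The actin genes are close in coding sequence, so counts of Acta2 depend on how reads shared with the far more abundant Actb were assigned. The nearest relatives of Acta2 in muscle, Actg2, Acta1 and Actc1, had at most 0.0605 CPM in any library.

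RNA markers of other cell types also differed between the libraries, some of them in the same direction as the contractile genes and some not. Of 12 pericyte markers, all measured, 12 lay above 0, with a median log2 fold change of 0.56. Their sum was 250.6 and 249.3 CPM in 5xFAD and 273.9, 384.7 and 266.3 CPM in transgenic mice. This sum leans on Rgs5 and Cspg4, the most abundant of the list. Cspg4 gave 105.3 CPM (5xFAD mouse 1), 51.7 CPM (5xFAD mouse 3), 127.6 CPM (transgenic mouse 1), 71.17 CPM (transgenic mouse 2) and 41.88 CPM (transgenic mouse 3). With a log2 fold change of 0.03 and overlap, it was highest in transgenic mouse 1 and lowest in transgenic mouse 3. The gap in the sum is therefore not a gap in most of the single markers. Every transgenic library lay above both 5xFAD libraries in 2 of the 12 pericyte markers (Ndufa4l2 and Cox4i2), 6 of 12 endothelial, 4 of 6 arterial, 3 of 6 oligodendrocyte and 5 of 5 erythroid markers, beside 7.2% of all tested genes. Pdgfrb, the receptor that recruits mural cells, stood at 11.01 and 17.34 CPM against 17.0, 31.3 and 19.7 CPM, and Rgs5 at 61.1 and 103 CPM against 54.4, 118 and 114 CPM, both overlapping. The log2 fold change of Rgs5 was 0.21, and -0.11 without 5xFAD mouse 1. Of 12 endothelial markers, all measured, 12 lay above 0, with a median of 0.70. Their sum was 946.2 and 945.6 CPM in 5xFAD and 1003, 1837 and 1073 CPM in transgenic mice. Of 6 markers of arterial endothelium, all measured, 6 lay above 0, with a median of 0.74, and their sum was 35.8 and 43.2 CPM against 52.2, 92.8 and 54.5 CPM. Oligodendrocyte markers (6 of 6 above 0) summed to 301.4 and 266.1 CPM in 5xFAD and to 956.4, 3842 and 293.9 CPM in transgenic mice. Erythroid markers (5 of 5 above 0) summed to 2.40 and 1.47 CPM in 5xFAD and to 7.40, 20.7 and 8.53 CPM in transgenic mice. No gene of these 5 lists was at 0 in all libraries, edgeR and limma-voom called none of them, and DESeq2 called Hba-a1 alone. The 12 pericyte, 12 endothelial, 6 arterial, 6 oligodendrocyte and 5 erythroid markers held 1, 1, 2, 1 and 5 genes at an unadjusted p under 0.05 in edgeR, all higher, beside 1.14% of all tested genes. Transgenic mouse 2, highest for 9 of the 10 contractile genes, was also the highest in each of these 5 sums. The same mouse had the highest astrocyte (425.9 CPM) and neuron (11.2 CPM) sums and the lowest border macrophage sum (203.1 CPM). Fibroblast markers lay in both directions (4 of 9 measured above 0, and 9 of 9 without 5xFAD mouse 3), and their sums overlapped, at 10.3 and 31.4 CPM against 11.4, 26.1 and 17.6 CPM. The median was 0.08 for microglia (5 of 6 above 0) and 0.14 without transgenic mouse 2. For border macrophages it was 0.22 (5 of 6), with 0.46 without transgenic mouse 2 and 0.14 without transgenic mouse 3. For astrocytes it was 0.15 (4 of 6), and 0.62 without 5xFAD mouse 3. The neuron median of 0.62 (5 of 6) rested on transgenic mouse 2 and was 0.06 without it, with 2 of 4 measured above 0. The choroid plexus and ependymal median of -1.62 (0 of 6) rested on 5xFAD mouse 3 and was 0.20 without it, with 4 of 6 above 0. The oligodendrocyte median was 2.86, and 1.03 without transgenic mouse 2. The part that the makeup of the cell samples had in the levels of the contractile genes was not tested.

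**Figure D3:**
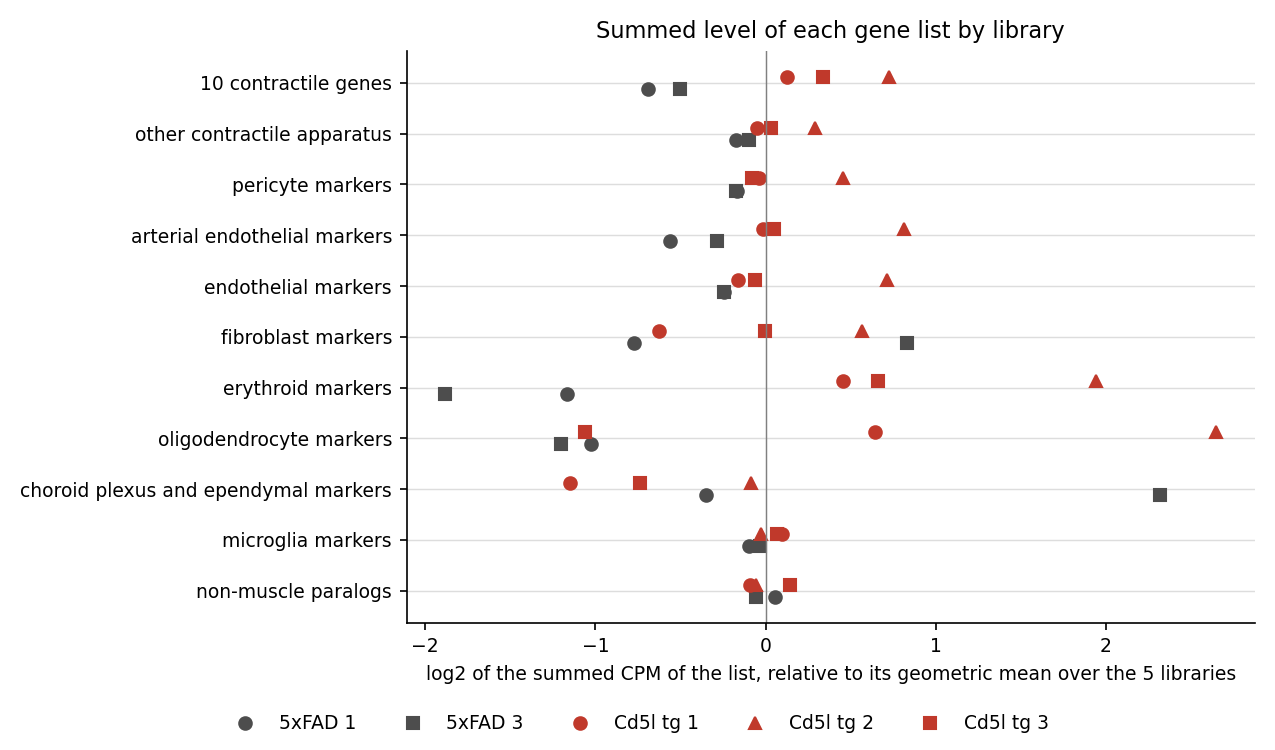
Summed CPM of each gene list in each library, as log2 relative to the geometric mean of the 5 libraries (horizontal axis). Grey symbols are 5xFAD and red symbols Cd5l-transgenic mice, with the mouse number in the legend. The 10 contractile genes (136.5 to 362.9 CPM) show a gap between the groups. So do the sums of other contractile apparatus genes and of pericyte, arterial, endothelial, erythroid and microglia markers. A sum leans on the most abundant genes of its list. In the apparatus (Flna, Myl6), pericyte (Rgs5, Cspg4) and endothelial (Flt1, Slc2a1) lists these genes had overlapping groups. Gene by gene, the groups did not overlap in 9 of 23 apparatus genes, 2 of 12 pericyte and 6 of 12 endothelial markers. The microglia gap is narrow (13350 CPM in transgenic mouse 2, 13300 CPM in 5xFAD mouse 3). Transgenic mouse 2 stands far right for oligodendrocyte, erythroid and endothelial markers, and 5xFAD mouse 3 for choroid plexus and ependymal markers.

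Ratios to the vascular markers are given as a description, because the 10 genes were picked for being higher in these transgenic libraries and any such ratio leans the same way. The sum of the 10 genes over that of the 12 pericyte markers was 0.545 and 0.623 in 5xFAD and 0.877, 0.943 and 1.05 in transgenic mice. Over the 6 arterial markers it was 3.81 and 3.598 in 5xFAD and 4.61, 3.91 and 5.11 in transgenic mice, so that transgenic mouse 2 stood close to 5xFAD mouse 1. Over the 12 endothelial markers it was 0.144 and 0.164 in 5xFAD and 0.24, 0.198 and 0.259 in transgenic mice. Flt1 and Slc2a1 are the most abundant of these, and over the other 10 endothelial markers the ratio was 0.401 and 0.362 against 0.564, 0.388 and 0.518, with overlap. Over the pericyte markers without their 2 most abundant genes it was 1.62 and 1.65 against 2.61, 1.86 and 2.51. The arterial ratio and both ratios over 10 markers were added after seeing the data. Without transgenic mouse 2 the median log2 fold change was 0.15 for the pericyte, 0.28 for the endothelial and 0.54 for the arterial markers, and 0.83 for the 10 contractile genes. The pericyte median was also lower without 5xFAD mouse 1, at 0.36.

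**Figure D4:**
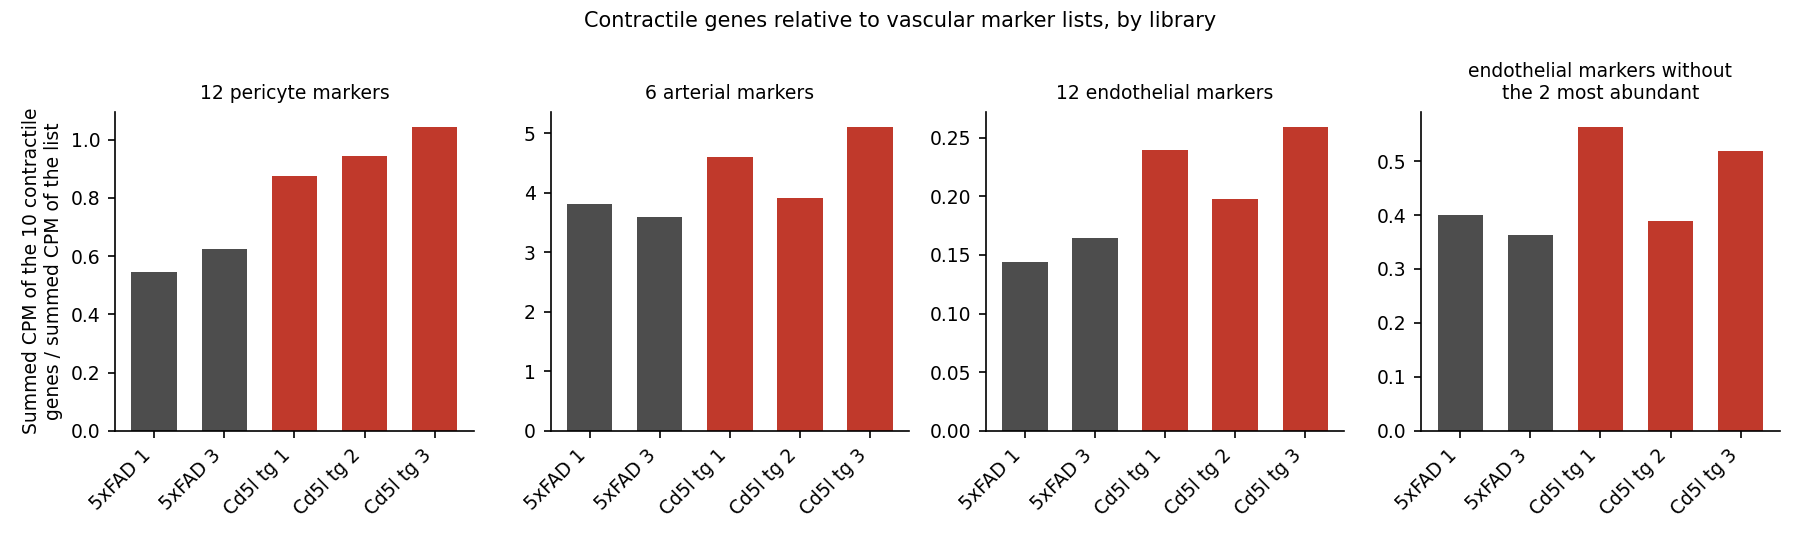
Summed CPM of the 10 contractile genes divided by that of each marker list in each library (vertical axes from 0), grey for 5xFAD and red for Cd5l-transgenic mice. Transgenic mouse 2 stands close to the 5xFAD mice over the arterial markers (3.91 against 3.81 and 3.598) and between them over the endothelial markers without the 2 most abundant (0.388 against 0.401 and 0.362).

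Genes with a profile like that of the 10 were ranked by the distance of their centred log2 CPM over the 5 libraries from the mean profile of the 10, among 10427 others averaging 5 CPM or more. The members themselves lay between 0.137 and 0.462 from it, and 17 other genes lay within that range. The nearest 8 were Fbln2 (distance 0.275), Cav1, Acer2, Bmx, Fbln5, Ptprb, Pln and Clec14a (0.392). Fbln2 and Fbln5 encode fibulins of the elastic fibre matrix, and Fbln2 stood at 4.47 and 4.68 CPM in the 5xFAD pair, against 6.72, 9.43 and 8.41 CPM with the transgene. Cav1, which forms caveolae in endothelium and smooth muscle, stood at 13.6 and 16.2 CPM against 21.5, 40.3 and 26.7 CPM. Bmx is a kinase of arterial endothelium, Ptprb and Clec14a are endothelial surface proteins, and Acer2 is a ceramidase. Bmx and Pln are also in the lists above. Such a ranking over 5 libraries describes likeness alone, and all of these genes were highest in transgenic mouse 2.

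Some genes of the table overlap the span of a contractile gene. Pcsk7, on the opposite strand, overlaps the end of Tagln and stood at 33.0 to 37.0 CPM over the libraries, with its highest value in 5xFAD mouse 3. The non-coding Gm48529 lies opposite within Tagln at 1.917 to 3.604 CPM, highest in transgenic mouse 2. The labels do not state strand use in the counting, and reads of these pairs may not have been told apart. Each other overlapping gene of the 10 had at most 1.195 CPM in any library.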

How the data were processed

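Counts per Ensembl gene were used as deposited by the authors, whole numbers without normalisation, for 56748 genes in 1 column per library. The gene lengths of the same deposited table gave the RPKM. Per the submitters' processing notes the build is GRCm39, also named mm39. Aligner, counter, annotation release and strandedness were not given in the sources used here. Columns were matched by library name, and the column of transgenic mouse 3 has its letter pairs in the other order. No per-sample column was left unused.

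Genes kept by filterByExpr (17724) were scaled by TMM factors of 0.952 to 1.02. Testing used the edgeR 4.0.16 quasi-likelihood test (robust, genotype alone, R 4.3.3), two-sided, with Benjamini-Hochberg adjustment and a threshold of 0.05. Differences are Cd5l-transgenic minus 5xFAD. Standard errors come from the fold change and F statistic. A count was worth 0.0287 to 0.0325 CPM and 3 counts 0.0862 to 0.0974 CPM, for counting error only. Every pair of libraries differed beyond sampling noise (chi-square per degree of freedom 19.5 to 55.2). The labels do not say more on how the mice were sampled, so p-values measure the spread between these libraries.

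On simulated counts for this comparison (17401 genes), edgeR found 40 of 95 genes with a 2-fold and 78 of 98 with an 8-fold change. It called 14 genes that had none. On the same simulation DESeq2 (17724 genes) found 47 of 100 and 85 of 100, and called 77 that had none. In the real libraries edgeR did not call even Cd5l (log2 fold change 8.23, adjusted p = 0.448 in edgeR). The lack of an edgeR call is therefore no sign that a gene was level. Alternatives were other scalings and filters, DESeq2 1.42.0 (on all genes with a count), limma-voom 3.58.1, the replicate number as a block, and each library left out. The 10 genes and 16 comparison lists were chosen with earlier results of these data known. Genes named from a list are those with the smallest p (up to 4) or the highest mean (up to 2), and the 8 nearest in profile. Acta1, Actc1, Actg2, Myh6, Ttn and the overlapping genes are named outside this rule, after their values were seen. So are Srf, Mrtfa, Tead1, Prkg1, Npr1, Kcnmb1 and Itpr1. 1 further gene of the microglia list is not reported here, and the list was summed without it.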

Additional observations from a re-analysis of the deposited data

How the results depend on the processing

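All 129 values of the 10 genes under 13 alternatives stayed above 0 (log2 0.52 to 1.52), a direction tied to how the genes were chosen, and within 1 SD of the values reported. Cnn1 was not kept by the filter of 5 CPM in 2 samples. DESeq2 called 12 genes higher and 3 lower, and the fit without 5xFAD mouse 3 and transgenic mouse 2, added after seeing the data, 13 and 28, where edgeR called 0 and 0. With 1 library left out edgeR called 0 higher and 0 to 10 lower (10 without 5xFAD mouse 1). A lone 5xFAD library is then assumed to vary like the others. With 1 library left out, the median log2 fold change was 0.15 to 0.79 for the other contractile genes and 0.02 to 0.09 for the non-muscle paralogs (0.02 without transgenic mouse 2), which stood at -0.0287 with limma-voom and -0.0148 without both libraries.

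Mice share only the numbers 1 and 3, which nothing in the labels pairs, and the differences of 1 minus 3 had a correlation of -0.10 over genes. With the replicate block edgeR again called 0 higher and 0 lower, and the median of the 10 genes was 0.82. There Rgs5 stood at -0.0118, Cspg4 at -0.00831 and Efnb2 at -0.0197.

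Other differences of uncalled genes changed sign: with limma-voom Rgs5 at -0.21 and Efnb2 at -0.023; without both libraries Myl6 at -0.0482, Myh9 at -0.0216, Mcam at -0.11 and Cspg4 at -0.31. With 1 library left out the ranges were Myl6 -0.0526 to 0.147, Rhoa -0.0132 to 0.13, Mef2d -0.125 to 0.0203, Myh9 -0.0356 to 0.232, Actb -0.152 to 0.0242, Rgs5 -0.11 to 0.64, Cspg4 -0.47 to 0.63 and Efnb2 -0.16 to 0.57. The median of contraction signalling was 0.07 with limma-voom, and that of the transcription regulators 0.06 with the replicate block. The cause was not tested.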
